A study of Mus musculus with 4 samples.

Results

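The genes described here are 44 genes of the cell division cycle, chosen by name: 22 that act in DNA replication and 22 that act in G2 and mitosis, among 52636 gene identifiers counted. All 44 had a counted identifier and all 44 passed the filter on low counts. They were read in RNA of sorted mouse kidney cells (by flow cytometry), in 2 control libraries and 2 libraries labelled Brg1-cKO, each made from 3000 cells. By usual usage Brg1-cKO is a conditional knockout of Brg1, the protein of Smarca4 and the ATPase of SWI/SNF nucleosome remodeling complexes. The sources used here do not give the deleting allele, strain, age or sorting marker, nor whether replicates are different animals. The p-values below thus rest on the spread of these 4 libraries alone, and that spread may be technical.

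A dividing cell first licenses its replication origins by loading the MCM2-7 helicase, then starts and runs DNA synthesis in S phase, and then condenses, aligns and separates its chromosomes in mitosis. E2F factors drive many replication genes near the G1 to S transition. Many mitotic genes carry a promoter element called CHR, bound by the MuvB complexes (DREAM, B-MYB and FOXM1), which keep them silent in resting cells and switch them on in G2. In the developing kidney, nephron progenitors divide while they renew, and podocytes leave the cycle as they mature, and such genes are widely used to read how many cells of a sample are dividing.

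The promoters of the 2 phases differed in their sequence, which played no part in choosing the members. RefSeq windows on GRCm38.p6 from 250 bases before to 50 after the start were found for 38 of the members (40 windows, since Mcm7 and Uhrf1 have a pair each), and none for Mcm4, Ccne2, Gins2, Ccna2, Aurkb and Tpx2. Matches were sought on both strands for an E2F core (the letters TTCCCGC or else TTGGCGC or else TTCGCGC or else TTGCCGC), for CHR (TTTGAA or TTCGAA) and for the CCAAT box (CCAAT), which NF-Y binds. These letters can overlap: a CHR and a CCAAT box share 1 base in the Cdca8 window. An E2F core stood in 13 of 21 replication windows (61.9%) and in 3 of 19 G2 and M windows (15.8%), beside 9.57% of all 32851 promoter windows and 15.6% of those of the genes tested. CHR letters went the other way, in 15 of 19 G2 and M windows (78.9%) and 3 of 21 replication windows (14.3%), beside 19.2% and 14.0%. A CCAAT box stood in 17 G2 and M windows (89.5%) and 14 replication windows (66.7%), beside 37.4% of all windows. All 15 G2 and M windows with CHR letters also held a CCAAT box, a pair found in 7.52% of all windows. The median start of the CHR matches was 18.5 bases before the transcription start. Median GC content was 63.0% in the replication set and 58.7% in the G2 and M set, beside 52.7% over all windows and 60.3% over those of the genes tested. These matches describe letters in a window and are not sites shown to be bound.

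**Figure D1:**
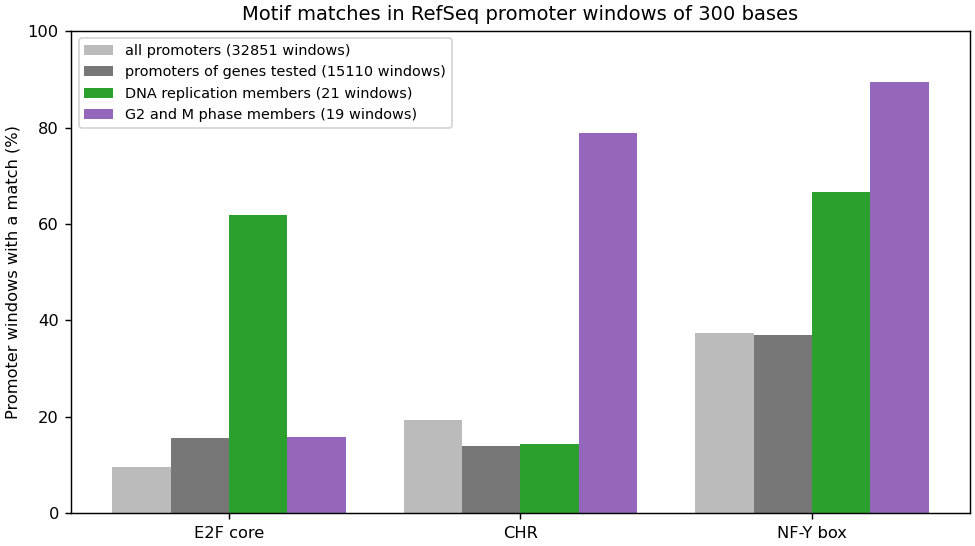
Share of RefSeq promoter windows (vertical axis, percent) that hold at least 1 match to each of 3 motif families (horizontal axis; the NF-Y box is the CCAAT box), for all promoters, promoters of the genes tested, and the windows of each phase. E2F core letters reach 61.9% in the replication set and CHR letters 78.9% in the G2 and M set.

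In each phase, 2 promoters are shown, from the members with the smallest p against control whose window holds a match to any of the 3 families. Capitals mark the matches, written 5′ to 3′ on the gene's strand. Cdc45 (chr16:18811923-18812222, minus strand) and Chaf1b (chr16:93883651-93883950, plus strand) are the replication pair. Cdca8 (chr4:124936868-124937167, minus strand) and Cdk1 (chr10:69352863-69353162, minus strand) are the mitotic pair. Chaf1b holds only E2F core letters, once near each end of its window. Cdca8 holds a row of CCAAT boxes ahead of its CHR, the motif pair common in its set, and Cdk1 holds all 3 families. Cdc45 departs from most of its set in holding CHR letters and no E2F core, and like most of its set it holds CCAAT boxes.
Cdc45: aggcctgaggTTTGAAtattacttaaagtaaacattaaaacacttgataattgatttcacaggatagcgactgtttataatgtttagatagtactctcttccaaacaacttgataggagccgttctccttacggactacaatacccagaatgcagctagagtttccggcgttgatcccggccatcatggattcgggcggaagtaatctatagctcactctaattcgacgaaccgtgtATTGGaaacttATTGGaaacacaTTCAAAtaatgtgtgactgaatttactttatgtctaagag
Chaf1b: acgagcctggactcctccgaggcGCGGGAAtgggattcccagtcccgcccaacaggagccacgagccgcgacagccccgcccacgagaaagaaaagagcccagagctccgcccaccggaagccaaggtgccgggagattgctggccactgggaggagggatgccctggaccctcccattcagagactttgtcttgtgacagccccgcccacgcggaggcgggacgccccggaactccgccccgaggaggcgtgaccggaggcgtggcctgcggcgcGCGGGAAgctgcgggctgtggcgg
Cdca8: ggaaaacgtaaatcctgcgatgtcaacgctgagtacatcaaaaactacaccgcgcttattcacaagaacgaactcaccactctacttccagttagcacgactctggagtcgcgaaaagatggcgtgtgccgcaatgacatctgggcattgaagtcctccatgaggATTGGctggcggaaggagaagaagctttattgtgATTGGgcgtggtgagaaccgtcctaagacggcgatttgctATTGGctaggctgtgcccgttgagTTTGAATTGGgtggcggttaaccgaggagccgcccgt
Cdk1: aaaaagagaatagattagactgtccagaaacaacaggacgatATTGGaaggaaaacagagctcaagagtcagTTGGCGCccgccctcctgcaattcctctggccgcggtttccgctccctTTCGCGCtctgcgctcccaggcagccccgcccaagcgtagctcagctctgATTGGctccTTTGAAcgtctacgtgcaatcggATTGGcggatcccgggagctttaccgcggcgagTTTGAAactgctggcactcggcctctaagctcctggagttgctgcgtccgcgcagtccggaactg

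The 2 controls held 35411905 and 37999342 counts on genes, and Brg1-cKO held 14645665 and 10922272. The share of uniquely aligned reads that fell outside the counted features was 15.4% to 16.5% of unique reads in control and 49.5% to 57.2% in Brg1-cKO. Smarca4, the targeted gene, was at 898 and 937 CPM (counts scaled to a fixed library total, with library sizes scaled by the trimmed mean of M values) in control and at 760.1 and 691 CPM in Brg1-cKO (log2 fold change -0.34, SE 0.09, adjusted p = 0.167 by edgeR). Its transcript was thus lower in both libraries but still abundant, and the counts can include exons outside a deleted part. Xist was at 217 to 244 CPM in control and 836 to 1205 CPM in Brg1-cKO, and the Y-linked Ddx3y at 76.0 to 78.8 against 1.05 to 3.27 CPM, so sex and genotype cannot be told apart. Log2 CPM over the genes tested correlated at r = 0.977 between the controls and at r = 0.758 between the Brg1-cKO libraries. Across the groups r was 0.801 to 0.807, so each Brg1-cKO library correlated more with the controls than with its own replicate. The coefficient of variation between replicates, by edgeR, was 0.361 in control and 1.29 in Brg1-cKO. The part of depth and spread in the order of these correlations was not tested. The correlations are across genes, which are not independent replicates.

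The summed level of the cycle genes differed little between libraries, and its direction depended on the scaling. The 44 members added up to 8297 and 8298 CPM in the controls and to 8049 and 8355 CPM in Brg1-cKO, on either side of the controls. As a share of all gene counts, without TMM scaling, they made up 0.838% and 0.842% in control and 0.786% and 0.819% in Brg1-cKO, both below. The G2 and M genes summed to 4657 and 4599.8 CPM in control and to 4773 and 4749.9 CPM in Brg1-cKO, slightly above, but their share of gene counts was 0.471% and 0.467% in control and 0.466% in each Brg1-cKO library, slightly below. The replication genes summed to 3639.7 and 3698 CPM in control and to 3276 and 3605 CPM in Brg1-cKO, below control on both scales (0.368% and 0.375% of gene counts against 0.320% and 0.353%). The ratio of the G2 and M sum to the replication sum was 1.28 and 1.24 in control and 1.46 and 1.32 in Brg1-cKO. The Brg1-cKO ratios lay further apart than those of the controls, and a difference in the ratio between groups was not tested. Fewer cells of a type and less RNA per cell cannot be told apart in such bulk samples.

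Against control, 0 of the 44 members had an adjusted p under 0.05 (edgeR, quasi-likelihood). Of all 18172 genes tested 0 had one either, a background of 0%. DESeq2 called 974 genes and limma-voom 112, with 0 members among them in either. The smallest adjusted p of a member was 0.240. Before adjustment 3 members had a p under 0.05, all higher in Brg1-cKO (Gins2, Cdc45 and Cdca8), and 0 lower. That split depended on the scaling: with libraries scaled by total gene counts, Gins2 was higher at that level and Ccne1 and Tpx2 were lower, at log2 fold changes of -0.61 and -0.34. Over all genes tested 18.3% had such a p, 5.44% higher and 12.9% lower, and over genes at 10 CPM in 2 libraries 12.7% had one. So 3 of 44 is fewer than either background in both directions together, and near the 5.44% for higher alone. It is no result about the members. For a single value, the smallest exact permutation p with 2 libraries a side is 0.333.

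The fitted fold changes, which average the 2 Brg1-cKO libraries, were small. Such an average can hide libraries that lay apart, as for Pcna (log2 ratios to the control mean of -0.84 and 0.67, fitted 0.10). The median log2 fold change was -0.20 for the replication members, of which 8 were above 0 and 14 below, and -0.0083 for the G2 and M members, of which 10 were above and 12 below. Over all genes tested it was -0.06, and over the 10381 genes at 10 CPM or more in 2 libraries it was 0.0028. The estimate lay within 1.5-fold of control for 40 of the 44 members, beside 44.7% of all genes tested and 65.4% of those at 10 CPM. For 22 members the 95% interval excluded a 2-fold change in either direction. For the other 22 it did not, so a change of that size cannot be set aside for them at this replication.

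**Figure D2:**
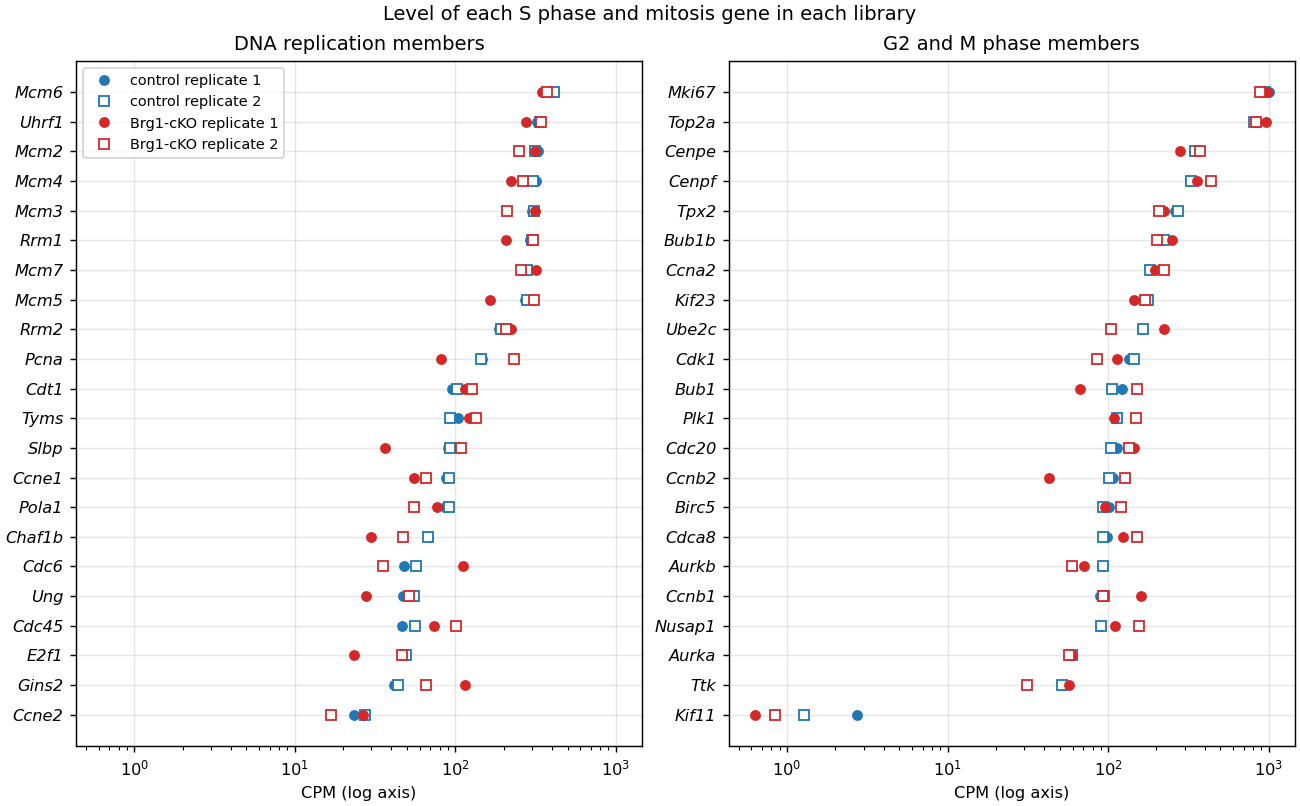
CPM on a log axis (horizontal) of each member (vertical) in the 2 control libraries (blue) and the 2 Brg1-cKO libraries (red), by phase. Mki67 and Top2a lie near the top of the scale in all 4 libraries and Kif11 stands alone at 0.629 to 2.74 CPM.

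**Figure D3:**
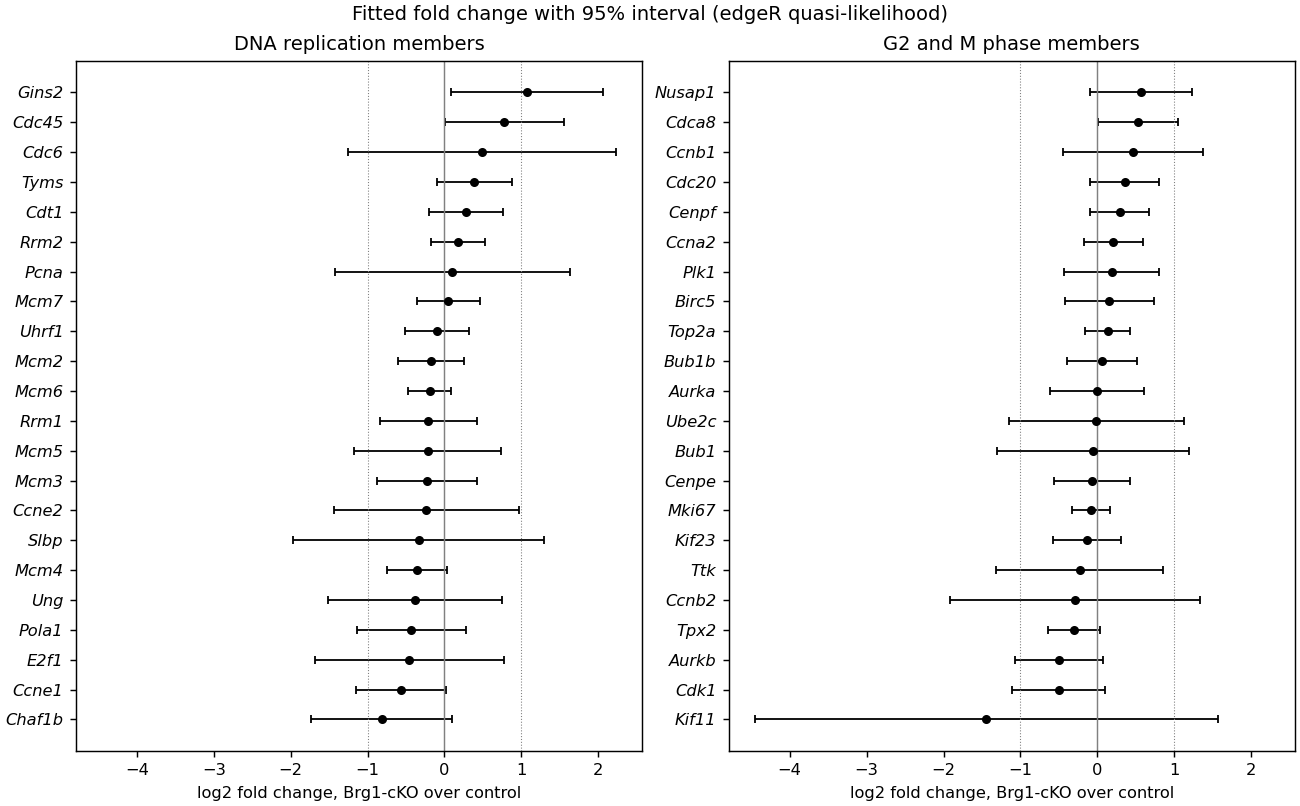
Fitted log2 fold change of Brg1-cKO over control (horizontal) with its 95% interval for each member, by phase, with dotted lines at a 2-fold change. The points centre near 0, and the intervals of Gins2, Cdc45 and Cdca8 lie above 0 before adjustment.

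Among the replication genes, the 6 subunits of the MCM2-7 helicase stood at even levels. Per kilobase of exon they spanned 79.4 to 101 CPM in control and 67.8 to 97.1 CPM in Brg1-cKO. Their sum was 1906 and 1896 CPM in control and 1678 and 1663 CPM in Brg1-cKO, below control in both libraries. Mcm4 was at 320.3 and 303 CPM in control and at 222 and 265 CPM in Brg1-cKO, a log2 fold change of -0.36 (SE 0.14). Mcm6 was at 409 and 413 CPM in control and at 346 and 372 CPM in Brg1-cKO, a log2 fold change of -0.19 (SE 0.10). For these 2 subunits the groups did not overlap, and for Mcm2, Mcm3, Mcm5 and Mcm7 they did. Mcm5 was at 271 and 278 CPM in control but at 164 and 308 CPM in Brg1-cKO, with the replicates on opposite sides.

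The 4 members that load the helicase or turn it on (Gins2, Cdc45, Cdt1 and Cdc6) had estimates above 0, while other genes of these steps, outside the 44, lay on both sides. Gins4, of the same complex as Gins2, was at 55.1 and 46.2 CPM in control and at 35.2 and 25.1 CPM in Brg1-cKO (log2 fold change -0.75, SE 0.33). Mcm10, which helps activate the helicase, was at 80.4 and 82.1 against 44.9 and 67.5 CPM (-0.53, SE 0.29). Gins1 (0.16, SE 0.37) and Gins3 (-0.32, SE 0.73), of the same complex as Gins4, overlapped with control. Orc2 (0.71, SE 0.20) and Dbf4 (0.26, SE 0.20), also of these steps, lay above both controls in both Brg1-cKO libraries. Gins2, a subunit of the GINS complex of the active helicase, was at 41.4 and 44 CPM in control and at 114 and 65.6 CPM in Brg1-cKO. Both Brg1-cKO values lay above both controls, and the log2 fold change was 1.08 (SE 0.35, adjusted p = 0.240 by edgeR), the highest upward estimate among the 44. Cdc45, which completes the active helicase with GINS, was at 46.3 and 55.8 CPM in control and at 73.5 and 102 CPM in Brg1-cKO (log2 fold change 0.78, SE 0.28, adjusted p = 0.270 by edgeR). Cdt1, the loader that recruits MCM2-7 to origins, was at 95 and 103 CPM in control and at 114 and 126 CPM in Brg1-cKO (log2 fold change 0.28, SE 0.18). Cdc6, its partner in loading, was at 47.6 and 57.1 CPM in control and at 112 and 35.3 CPM in Brg1-cKO, with no direction shared by the replicates. Gins2 lies on chromosome 8 from 120578633 to 120589304 and shares 2758 exonic bases with Gse1 on the other strand, and Cdc45 on chromosome 16 from 18780447 to 18811987 shares 209 with Ufd1 (mm10, GENCODE M21). The library kit keeps the strand, but the sources used here do not say whether the counting used it.

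The 3 members that drive the G1 to S step (Ccne1, Ccne2 and E2f1) had estimates below 0, while E2f2 and E2f3, activating E2Fs outside the 44, had log2 fold changes of 0.61 (SE 0.29) and 0.22 (SE 0.25). Ccne1, the cyclin that activates Cdk2 at S phase entry, was at 88.0 and 90.8 CPM in control and at 55.3 and 65.6 CPM in Brg1-cKO (log2 fold change -0.56, SE 0.21, adjusted p = 0.287 by edgeR). E2f1, an activating E2F, was at 46.9 and 49.1 CPM in control and at 23.3 and 46.8 CPM in Brg1-cKO, so only replicate 1 was clearly lower. Ccne2, the second cyclin E, was at 16.8 to 27.6 CPM in the 4 libraries, and the groups overlapped.

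Genes of the fork and of the chromatin behind it were mixed. Chaf1b, a subunit of the histone chaperone CAF-1, was at 67.7 and 67.2 CPM in control and at 29.7 and 47.0 CPM in Brg1-cKO (log2 fold change -0.82, SE 0.33, adjusted p = 0.323 by edgeR), the lowest among the replication genes. Pola1, the catalytic subunit of the polymerase that starts each DNA strand, was at 86.6 and 91.3 CPM in control and at 76.9 and 55.1 CPM in Brg1-cKO. Both genes were below control in both libraries. Uhrf1, which guides maintenance DNA methylation, was at 322 and 339 CPM in control and at 277 and 342 CPM in Brg1-cKO. Pcna, the sliding clamp, was at 147 and 144 CPM in control and at 81.1 and 231 CPM in Brg1-cKO. Slbp, which binds the stem loop of histone mRNAs, was at 90.4 and 92.9 CPM in control and at 36.3 and 109 CPM in Brg1-cKO.

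Nucleotide supply showed no shared direction. Tyms, thymidylate synthase, was at 103 and 92.6 CPM in control and at 122 and 134 CPM in Brg1-cKO (log2 fold change 0.39, SE 0.18). Rrm2, the regulatory subunit of ribonucleotide reductase, was at 188 and 193 CPM in control and at 222 and 208 CPM in Brg1-cKO, both above control (log2 fold change 0.17, SE 0.13). Rrm1, its catalytic partner, was at 294 and 299 CPM in control and at 207 and 306 CPM in Brg1-cKO. Ung, the uracil glycosylase, was at 47.3 and 55.6 CPM in control and at 27.7 and 51.3 CPM in Brg1-cKO. For Rrm1 and Ung the groups overlapped.

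Among the mitotic genes, the markers of dividing cells were the most abundant and the most precisely measured. Mki67, which coats mitotic chromosomes and is the usual stain for cycling cells, was at 1003 and 954 CPM in control and at 971 and 881 CPM in Brg1-cKO. Its groups overlapped, and its log2 fold change of -0.08 (SE 0.09) had a 95% interval from -0.33 to 0.17. Top2a, the topoisomerase that untangles sister chromatids, was at 836 and 806 CPM in control and at 968 and 834 CPM in Brg1-cKO, with a log2 fold change of 0.13 (SE 0.11) and an interval from -0.16 to 0.43. Top2a was also the highest member per kilobase of exon, at 157 CPM in control.

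The cyclins and the kinase that start mitosis did not share a direction. Cdk1, the kinase itself, was at 136 and 145 CPM in control and at 114 and 85.0 CPM in Brg1-cKO, below control in both libraries (log2 fold change -0.50, SE 0.22). Ccna2, cyclin A, was at 182 CPM in each control and at 196 and 223 CPM in Brg1-cKO, above control in both (log2 fold change 0.21, SE 0.14). Ccnb1, cyclin B1, was at 88.4 and 94.6 CPM in control and at 160.4 and 92.9 CPM in Brg1-cKO. Ccnb2, cyclin B2, was at 107 and 101 CPM in control and at 42.6 and 128 CPM in Brg1-cKO. The 2 B cyclins thus lay apart within the Brg1-cKO group, with Ccnb1 high in replicate 1 and Ccnb2 low in it. Summed, the 3 cyclins and Cdk1 came to 513 and 522 CPM in control and 512 and 529 CPM in Brg1-cKO.

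The chromosomal passenger complex, which corrects faulty spindle attachments, was split between its subunits. Cdca8, borealin, was at 98.0 and 92.5 CPM in control and at 124 and 151 CPM in Brg1-cKO (log2 fold change 0.53, SE 0.19, adjusted p = 0.271 by edgeR). Aurkb, the kinase of the same complex, was at 91.0 and 93.3 CPM in control and at 70.9 and 59.7 CPM in Brg1-cKO (log2 fold change -0.50, SE 0.21, adjusted p = 0.334 by edgeR). Neither gene's groups overlapped, and the estimates lay in opposite directions. Birc5, survivin, was at 101 and 92.4 CPM in control and at 95 and 120.4 CPM in Brg1-cKO, with overlap. Cdca8 lies on chromosome 4 from 124918465 to 124939311 and shares 232 exonic bases with 9930104L06Rik on the other strand.

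For the other mitotic kinases the groups overlapped, and the Brg1-cKO libraries of some lay well apart. Plk1 was at 112 and 114 CPM in control and at 109 and 148 CPM in Brg1-cKO. Aurka, which builds the spindle poles, was at 56.7 to 59.9 CPM in the 4 libraries (log2 fold change -0.0039, SE 0.22). Bub1b was at 209 and 222 CPM in control and at 249 and 201 CPM in Brg1-cKO. Bub1 and Ttk, checkpoint kinases at kinetochores, differed between the Brg1-cKO replicates. Bub1 was at 67.2 and 151 CPM there against 121 and 105 CPM in control, and Ttk at 57.2 and 31.3 CPM against 52.0 and 51.8 CPM.

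Proteins that drive mitotic exit and the spindle gave both directions. Cdc20, which activates the anaphase-promoting complex, was at 114 and 105 CPM in control and at 146 and 135 CPM in Brg1-cKO (log2 fold change 0.36, SE 0.16). Ube2c, the ubiquitin-conjugating enzyme of that complex, was at 164 CPM in each control and at 222 and 104 CPM in Brg1-cKO. Nusap1, a microtubule bundler, was at 90.6 and 90.0 CPM in control and at 111 and 156 CPM in Brg1-cKO, the highest estimate of the mitotic set (log2 fold change 0.57, SE 0.24, adjusted p = 0.346 by edgeR). Cenpf, a kinetochore protein, was at 324 and 327 CPM in control and at 360.1 and 438 CPM in Brg1-cKO. Tpx2, the activator of Aurka on the spindle, was at 259.6 and 274 CPM in control and at 224 and 209 CPM in Brg1-cKO (log2 fold change -0.30, SE 0.12). Cdc20, Nusap1 and Cenpf were above control in both libraries, and Tpx2 was below.

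Of the 3 motor proteins, Cenpe was at 341 and 347 CPM in control and at 282 and 376 CPM in Brg1-cKO, and Kif23, needed for cytokinesis, at 167 and 178 against 145 and 169.8 CPM. Both overlapped with control. Kif11, the motor that separates the spindle poles, had only 98 and 49 counts in control and 9 in each Brg1-cKO library, or 0.629 to 2.74 CPM. It was the lowest member in every library, while the related motors Kif15, Kif4 and Kif20a stood at 104.6 to 237 CPM and Kif18a at 12.9 to 26.9 CPM. Its log2 fold change of -1.44 had a 95% interval from -4.46 to 1.57, the widest of the 44. No transcript of another gene matched Kif11 at 95% identity over 600 bases, and no annotated exon overlaps it, and why so few reads were counted was not tested.

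The groups did not overlap for 20 of the 44 members, or 45.5% of them, beside 52.0% of all genes tested and 50.9% of those at 10 CPM in 2 libraries. Both Brg1-cKO libraries lay above both controls for 10 members, beside 17.5% of all genes, and below them for 10, beside 34.5%. The spread between libraries was wider in Brg1-cKO than in control. The median size of the log2 ratio between the replicates was 0.39 over the members in Brg1-cKO and 0.07 in control, beside 0.95 and 0.17 over all genes tested, and 0.66 and 0.10 over genes at 10 CPM. For 18 members the 2 Brg1-cKO libraries lay on opposite sides of the control mean, beside 42.7% of all genes tested and 43.6% of those at 10 CPM. Pcna had 1161 and 2473 counts in the Brg1-cKO libraries, Slbp 520 and 1168, Ccnb2 609 and 1368, and Cdc6 1599 and 378. Reads are not independent molecules here, and the part of sampling in these gaps was not tested. Pcna, Slbp and Ccnb2 were low in replicate 1 and Cdc6 and Ube2c high in it, so neither library was high or low throughout.

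**Figure D4:**
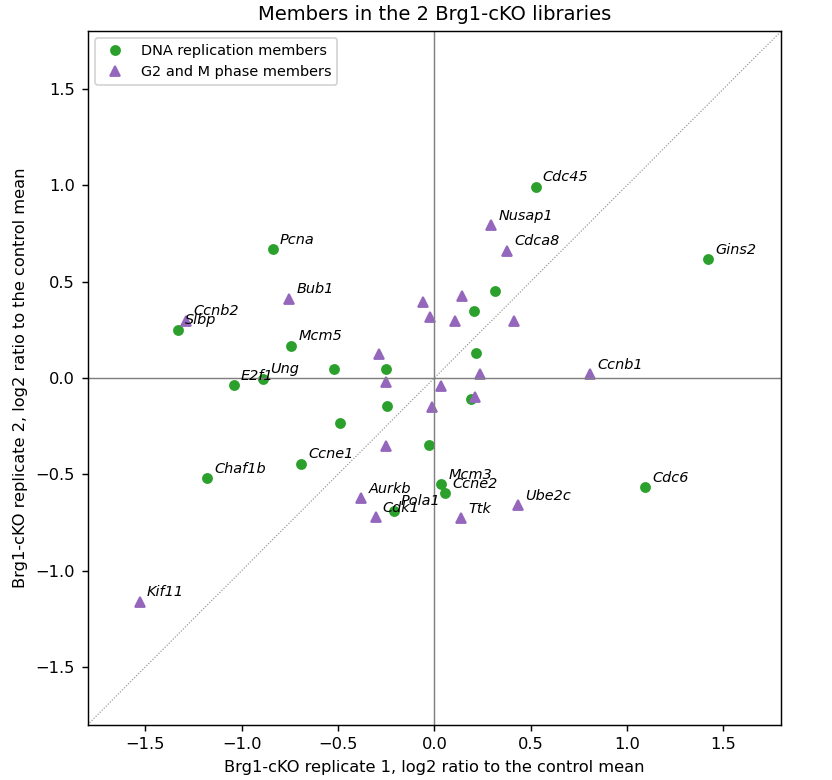
Log2 ratio to the control mean of each member in Brg1-cKO replicate 1 (horizontal) and replicate 2 (vertical), with a pseudocount of 0.1 CPM, for replication genes (circles) and G2 and M genes (triangles). The 18 members in the upper left and lower right quadrants went opposite ways in the 2 libraries. Among the rest, Gins2, Cdc45, Cdca8 and Nusap1 were above control in both, and Chaf1b, Ccne1, Cdk1 and Aurkb were below control in both.

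With a single Brg1-cKO library kept, which was then assumed to vary like the controls, most genes were called. The direction of some members depended on the library kept, as for Pcna (log2 fold change -0.86 with replicate 1 and 0.64 with replicate 2). Others kept theirs, as Cdc45 (0.51 and 0.97) and Mcm4 (-0.51 and -0.26) did. With replicate 1 alone 13 members were called higher and 18 lower (60.6% of all genes were called), and with replicate 2 alone 14 higher and 15 lower (55.5%). Both fits used the same 2 controls, so their calls are not independent.

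The members stood in much the same order of level in both groups. Across the 44 genes, CPM per kilobase of exon in the 2 group means correlated at Pearson r = 0.963 on the log2 scale and Spearman rho = 0.936, and without Kif11 at 0.927 and 0.931. These values describe genes, which are not independent replicates and share libraries and length. There are 6 members with a near-identical copy elsewhere in the annotation (Ccnb1, Cdc6, Mcm7, Pcna, Tyms and Uhrf1), so reads shared with the copy may be missing from them. Exons of 11 members overlap a gene on the other strand.

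Cycle genes outside the 44 were read in the same way. Of 49 other replication genes, all tested, 26 had an estimate above 0 and 23 below, with a median log2 fold change of 0.04. At an unadjusted p under 0.05, 2 were higher and 3 lower. Rfc1, the large subunit of the clamp loader, was at 214 and 221 CPM in control and at 87.3 and 127 CPM in Brg1-cKO (log2 fold change -1.02, SE 0.24). Orc2, of the origin recognition complex, was at 61.8 and 56.3 against 91.6 and 101 CPM (0.71, SE 0.20), and Timeless, of the fork protection complex, at 153 and 157 against 113 and 106 CPM (-0.50, SE 0.15). Of 64 tested among 65 other G2 and M genes, 37 had an estimate above 0 and 27 below, with a median of 0.10, and 3 were higher and 2 lower at that p. Spc24, of the NDC80 kinetochore complex, was at 60.7 and 63.8 CPM in control and at 21 and 27.4 CPM in Brg1-cKO (-1.36, SE 0.29). Lmnb1, lamin B1, was at 855 and 886 against 693 and 613 CPM (-0.42, SE 0.10), and Ccnf, cyclin F, at 58.9 and 59.1 against 95.9 and 107 CPM (0.78, SE 0.19). By edgeR 0 of these 6 genes passed after adjustment over all genes, the smallest adjusted p being 0.166.

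Of 19 transcription regulators of the cycle, 2 were higher and 2 lower at an unadjusted p under 0.05, with 0 past the adjusted threshold. Mybl2, the B-MYB that joins MuvB at CHR promoters, was at 50.6 and 48.1 CPM in control and at 22.9 and 26.6 CPM in Brg1-cKO (log2 fold change -0.99, SE 0.29, adjusted p = 0.194 by edgeR). Tfdp1, the usual dimer partner of E2F factors, was at 170.3 and 176 CPM in control and at 110.4 and 120.2 CPM in Brg1-cKO (-0.59, SE 0.15, adjusted p = 0.166 by edgeR). Tfdp2, a second partner, was at 106 and 91.5 against 137 and 143 CPM (0.50, SE 0.18, adjusted p = 0.258 by edgeR). Among 13 tested checkpoint and degradation regulators 0 had an unadjusted p under 0.05. The nearest were Cdc25a, the phosphatase of S phase entry, at 145 and 144 CPM in control against 253 and 179 CPM in Brg1-cKO, and Atm, the DNA damage kinase, at 91.4 and 89.2 against 112 and 177 CPM. Ube2s, which elongates ubiquitin chains for the anaphase-promoting complex, was at 75.2 and 70.2 against 23.8 and 49.7 CPM.

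Marker lists of kidney cell types stood at different summed levels in the groups, while the cycle genes summed to like levels. The 10 podocyte markers summed to 645 to 646 CPM in control and 2647 to 2845 CPM in Brg1-cKO, all with estimates above 0, among them Nphs1 at 21.8 to 22.1 against 152 to 198 CPM. The 10 early nephron markers summed to 1414 to 1415 against 2289 to 2517 CPM, with 8 estimates above 0 and 2 below. The 10 nephron progenitor markers summed to 1960 to 1987 against 2371 to 2439 CPM, with 6 estimates above 0 and 4 below. Of the progenitor markers, Six2 was at 242 and 237 CPM in control and at 234 and 126 CPM in Brg1-cKO, and Cited1 at 19.9 and 17.2 against 43.0 and 5.98 CPM, so their Brg1-cKO replicates also lay apart. The tubule list, with 8 of 10 markers tested, summed to 254 to 259 against 396 to 505 CPM. It had 5 estimates above 0 and 3 below. Slc3a1 was at 0 in both Brg1-cKO libraries but at a mean of only 0.88 CPM in control. The ureteric bud list summed to 231 to 237 against 76.9 to 149 CPM. It had 1 estimate above 0 (log2 fold change 1.24) and 9 below, and for 2 of its markers the groups overlapped. Calb1, Wnt9b and Wnt7b were at 0 counts in both Brg1-cKO libraries, against means of 52.8, 8.07 and 4.63 CPM in control. The stromal list came to 2822 to 2851 against 1239 to 1365 CPM, and the endothelial list to 722 to 733 against 257 to 394 CPM. Ren1, of the stromal list, was at 0 in both Brg1-cKO libraries but at a mean of only 1.06 CPM in control. The immune list came to 144 to 148 against 57.3 to 58.4 CPM, with C1qa at 0 against a mean of 9.41 CPM in control. It had 1 estimate above 0 and 9 below. Erythroid markers stood at or near 0 in all libraries. The part of this difference in cell markers in the values of the cycle genes was not tested.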

How the data were processed

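The authors deposited raw counts of reads per gene, 1 file per library. Per the labels' protocols, strand-specific, randomly primed libraries were read as 75 bp single ends. The submitters' processing notes list mm10, TopHat and DESeq2. The counting program, annotation and strand setting are not given in the sources used here. Of all reads, 31.8% to 32.4% in control and 65.5% to 72.1% in Brg1-cKO were given to no gene, and the fits do not use them. Where a gene has 0 counts, its level may still reach 3 counts (0.0789 to 0.275 CPM by library), from counting error alone.

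Symbols and positions came from GENCODE M21 (52403 of 52636 identifiers). The libraries were fitted with edgeR 4.0.16 in R 4.3.3: TMM scaling, the default filter (minimum count 10), the robust quasi-likelihood F test with group as the only term, and Benjamini-Hochberg adjustment at 0.05. SE is the log2 fold change over the root of F. Lengths are unions of exons. Copies were sought with blastn 2.17.0. Of the fits, only the main edgeR fit was run on simulated data, and how many changes it recovered there is not given here.

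Named were all members, Smarca4, the 3 genes of smallest p in each other cycle list (no overlap, 10 CPM or more in the higher group) and up to 2 first genes of marker lists (1 is not reported here). Xist, Ddx3y, the other kinesins, Gins1, Gins3, Gins4, Mcm10, Dbf4, E2f2, E2f3, Cdkn1a and markers at 0 were named after their values were seen. The members and lists were chosen with earlier results of these data known. Alternatives were DESeq2 1.42.0, limma-voom (limma 3.58.1), RLE and total-count scaling, library sizes computed after dropping mitochondrial, hemoglobin and ribosomal protein genes, other filters, a replicate block and each library left out. Thinning to the smallest library was added after seeing the data.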

Additional observations from a re-analysis of the deposited data

How the results depend on the processing

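Precision is limited by 2 libraries per group and, for Kif11, by a count of 9 in each Brg1-cKO library. Of the 44 members, 0 passed the adjusted threshold in any fit that kept all 4 libraries or left out a control. Over all genes, 974 passed with DESeq2, 112 with limma-voom and 156 with the replicate block, and 16 to 13262 with 1 library left out. The labels do not say whether shared replicate numbers pair the libraries. Deviations of same-numbered libraries from their group means correlated at -0.0169. With 2 libraries per group this is the same value for both pairs, so it cannot decide whether they are paired. The median log2 fold change of the replication members stayed below 0 in every fit, at -0.25 to -0.049 with 1 library left out. For the G2 and M members the sign of the median depended on the scaling and filter. It was 0.046 with DESeq2, 0.046 with RLE, 0.023 at 10 CPM in 2 libraries, 0.061 with thinned counts, -0.020 with limma-voom, -0.051 with total counts, -0.041 without a filter and -0.043 with the replicate block. It was -0.032 to -0.0064 with 1 library left out. The median over all genes was -0.005 with DESeq2 and RLE, -0.10 with total counts, -0.31 with limma-voom and the replicate block, and -0.61 without a filter. It was -0.40 or -0.58 with Brg1-cKO replicate 1 or 2 left out, and 0.0065 or 0.0024 with control replicate 1 or 2 left out. The replication median lay above it with limma-voom (-0.21), the replicate block (-0.22), no filter (-0.24) and either Brg1-cKO library left out. In the other fits it lay below that of all genes. Replication members at an unadjusted p under 0.05 numbered 1 with limma-voom and with the replicate block, 3 without a filter (Chaf1b joining as lower), and 0 to 18 with 1 library left out. With total counts they numbered 2, with Ccne1 (lower) in place of Cdc45 (higher), and the G2 and M count stayed at 1 with Tpx2 (lower) in place of Cdca8 (higher). G2 and M members at that p numbered 2 with DESeq2, 0 with limma-voom, without a filter and with the replicate block, and 0 to 15 with 1 library left out. The cause was not tested. In the fits with all 4 libraries, 40 members kept their direction. Aurka turned to 0.050 with DESeq2 and RLE, 0.0010 with limma-voom, 0.023 at 10 CPM and 0.020 with thinned counts, Ube2c to 0.041 with DESeq2 and RLE, 0.018 at 10 CPM and 0.061 with thinned counts, Bub1 to 0.061 with thinned counts, and Pcna to -0.18 with limma-voom and -0.084 with the replicate block. With 1 library left out, 20 members turned, and the ranges of their log2 fold changes were Aurka -0.072 to 0.015, Birc5 -0.044 to 0.29, Bub1 -0.77 to 0.38, Bub1b -0.13 to 0.19, Ccnb1 -0.0076 to 0.79, Ccnb2 -1.31 to 0.27 and Ccne2 -0.63 to 0.034. They were Cdc6 -0.60 to 1.07, Cenpe -0.31 to 0.10, Mcm3 -0.58 to 0.016, Mcm5 -0.77 to 0.14, Mcm7 -0.13 to 0.17, Pcna -0.86 to 0.64 and Plk1 -0.077 to 0.37. The rest were Rrm1 -0.54 to 0.018, Slbp -1.35 to 0.22, Top2a -0.0052 to 0.22, Ttk -0.76 to 0.12, Ube2c -0.69 to 0.41 and Uhrf1 -0.27 to 0.02.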

Other observations

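Targets of p53, which halts the cycle after DNA damage, showed no shared direction. Of the 10 genes listed, all tested, 5 had an estimate above 0 and 5 below, with 0 at an unadjusted p under 0.05. Zmat3, an RNA-binding protein induced by p53, was at 28.5 and 32.1 CPM in control and at 39.7 and 91.9 CPM in Brg1-cKO (log2 fold change 1.12, SE 0.50, adjusted p = 0.371 by edgeR). Bbc3, the death factor PUMA, was at 30.8 and 28.1 against 35.5 and 54.4 CPM, and Sesn2, a stress sensor, at 34.0 and 42.8 against 55.7 and 47.8 CPM. In these genes both Brg1-cKO libraries lay above both controls, but they were named because their groups did not overlap, so this is no result. Of the 10 listed, both Brg1-cKO libraries lay above both controls for 4 and below them for 3. Over all genes tested these shares were 17.5% and 34.5%. Cdkn1a, the CDK inhibitor p21 and the best known p53 target, was at 8.41 and 8.27 CPM in control and at 0.349 and 4.67 CPM in Brg1-cKO (log2 fold change -1.74, SE 1.55), and it was named after its value was seen.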
